A study of Mus musculus with 15 samples.

Results

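The comparison described here set brain RNA of APP/PS1 mice aged 3 months against brain RNA of APP/PS1 mice aged 1 month. Its members were the arrays whose labels carry those ages, 3 at each age, so 6 of the 14 arrays with scanner values. Every group of the series was on a C57BL background. Besides these ages there were APP/PS1 mice at 6 and 9 months and wild-type (WT) mice, whose age the sample labels do not give. All the mice of the comparison carried the APP/PS1 genotype, so it describes age within the model and has no age-matched WT side. The labels give neither the promoters nor the cells that drive the transgenes.

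The APP/PS1 line carries transgenes that lead to the amyloid deposits known from Alzheimer's disease, which build up in the brain with age. Amyloid-beta is a peptide cut from the amyloid precursor protein of neurons and other cells. Between the ages compared a mouse also passes from the juvenile to the adult brain. The array was aimed mainly at long noncoding RNAs, transcripts that are not translated and of which many regulate or lie beside protein-coding genes.

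Before the ages were compared, the arrays were compared with each other. Replicates 2 and 3 at 1, 3 and 6 months repeated each other's noise: the deviations of their negative control probes had a correlation between 0.800 and 0.825 in the 3 such pairs of the series. In the remaining 10 pairs of arrays from one group it ran from -0.014 to 0.240. The arrays of such a pair also lay at the same place on a slide. Each pair differed by less than the noise between other arrays and was averaged and counted as 1 sample, which left 2 samples at each age and 11 in all. Sample 1 is replicate 1, labelled male, and sample 2 is the mean of replicates 2 and 3, labelled female, whereas the series' design text speaks of males. Over 48298 probes above background on 3 or more arrays, none separated the 6 samples labelled female from the 5 labelled male by 1 log2 unit or more, and the widest gap was 0.79. No probe was named for Xist or Ddx3y, so the sexes were not checked on those genes. The design text counts 3 mice at each age, but no label ties an array to an animal, and the p-values below measure the spread between these samples, which may be technical.

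Signals are given as log2 of the processed intensity relative to the 75th percentile of the same array, so positive values mark the brighter spots of an array. That percentile was 473, 492 and 488 intensity units on the 1-month arrays and 384, 407 and 405 on the 3-month arrays, so the raw brightness of the ages did not overlap. Between 73.6% and 75.8% of spots were well above background at 1 month, and between 68.3% and 74.0% at 3 months. No spot was saturated. Among these 6 arrays each place on the slide held 1 age only, so slide position and age cannot be told apart. Of the series, the 9-month arrays alone were scanned at 354 V, with a recorded glass thickness of 978.801. All other arrays were scanned at 355 or 356 V. For the 9-month levels given below, age and scan setting therefore cannot be told apart. No probe was named for any of 40 markers of 9 brain cell types. The transgenes and the cell type makeup of the tissue were not checked, and a change in the number of cells of a type cannot be told apart from a change in RNA per cell.

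Of the 43884 features tested, 4498 (10.2%) were called higher at 3 months and 3140 (7.16%) lower, together 17.4%, at a Benjamini-Hochberg adjusted p under 0.05 in limma. Most of these differences were modest. The median called rise was 0.54 log2 units and the median called fall -0.55, and 734 of the rises and 377 of the falls reached 1 log2 unit. A difference of 2 log2 units or more was found for 146 features called higher and 43 called lower. The median over all features was 0.0025. Without scaling between the arrays that median was -0.28 and the split turned, to 1144 called higher and 7217 called lower, so the directions below are relative to the 75th percentile of each array. When the fit held only the 1-month and 3-month samples, 858 features were called, 628 of them higher. Of the called features all 7638 had samples that did not overlap between the ages, as did 61.9% of all features tested.

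**Figure D1:**
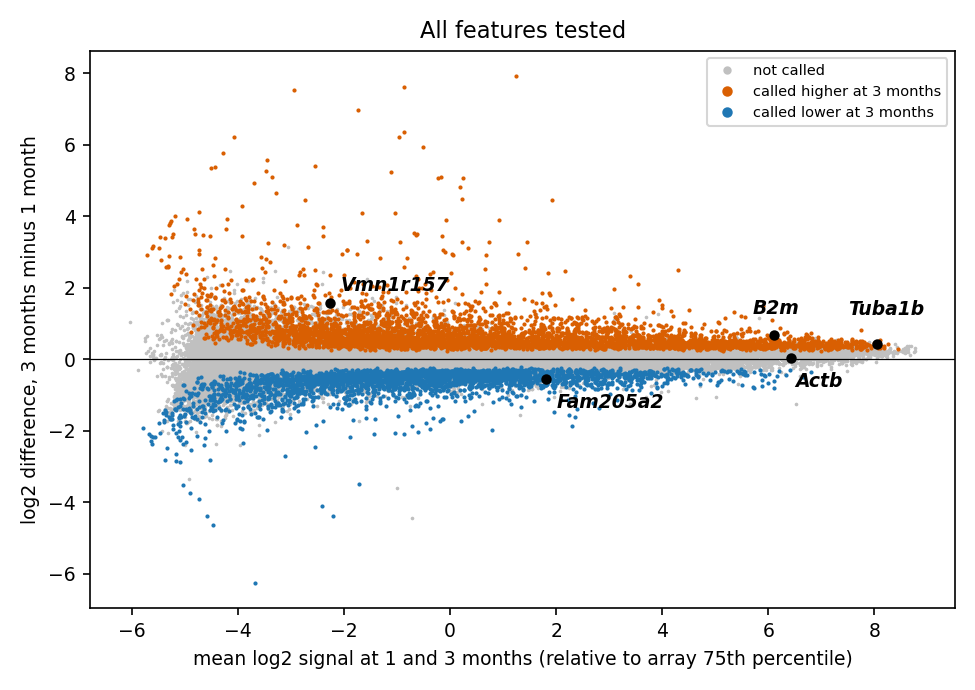
Each point is a feature: its mean log2 signal over the 1-month and 3-month samples (relative to the array's 75th percentile) on the horizontal axis and the log2 difference, 3 months minus 1 month, on the vertical axis, with called features in colour and 5 named genes in black. Called features lie at every signal level, and the widest differences, up to 7.92, are among features called higher.

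The share called rose with brightness, from 8.35% in the dimmest of 4 equal groups of features through 13.5% and 22.2% to 25.6% in the brightest. In the brightest group 2021 features were called higher and 789 lower, and its median difference was 0.10. The difference could be taken once within sample 1 and once within sample 2 of each age, which share no array. Over all features these 2 differences had the same sign in 74.4%, with a Pearson correlation across features of 0.56, and the correlation was 0.41 in the dimmest group and 0.86 in the brightest. Features are not independent replicates, and these values describe how far the samples repeated each other.

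Genes with a name were a small part of the array. RefSeq records gave symbols to 116 of 123 RefSeq-named probes, for 112 genes, of which 79 passed the filter on dim probes and were tested. Of these 14 were called higher at 3 months and 4 lower, against 10.2% and 7.16% of all features. The median difference of the 79 was 0.025. When the fit held only the 1-month and 3-month samples, each of the 18 called genes lost its call (limma adjusted p between 0.0524 and 0.147). Each kept its direction in all 20 alternatives run, but that is no separate support. Samples of called features did not overlap, so leaving 1 out could not turn a sign, and several alternatives left the difference itself unchanged. With 1 sample left out at a time, 12 of the 18 lost their calls without sample 1 at 1 month and 14 without sample 2 at 1 month. The losses were 15 without sample 1 at 3 months and 10 without sample 2 at 3 months. B2m, Gm4312 and Tagap kept their calls in each of these 4 fits. With normexp background correction 9 lost their calls (adjusted p between 0.0530 and 0.175): B020031M17Rik, Dhrsx, Fam177a2, Gm3286, H2ac18, Hprt, Spry3, Tuba1b and Vamp7. The losses were 10 without the 9-month arrays, 8 with no filter on dim probes and 13 without scaling.

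**Figure D2:**
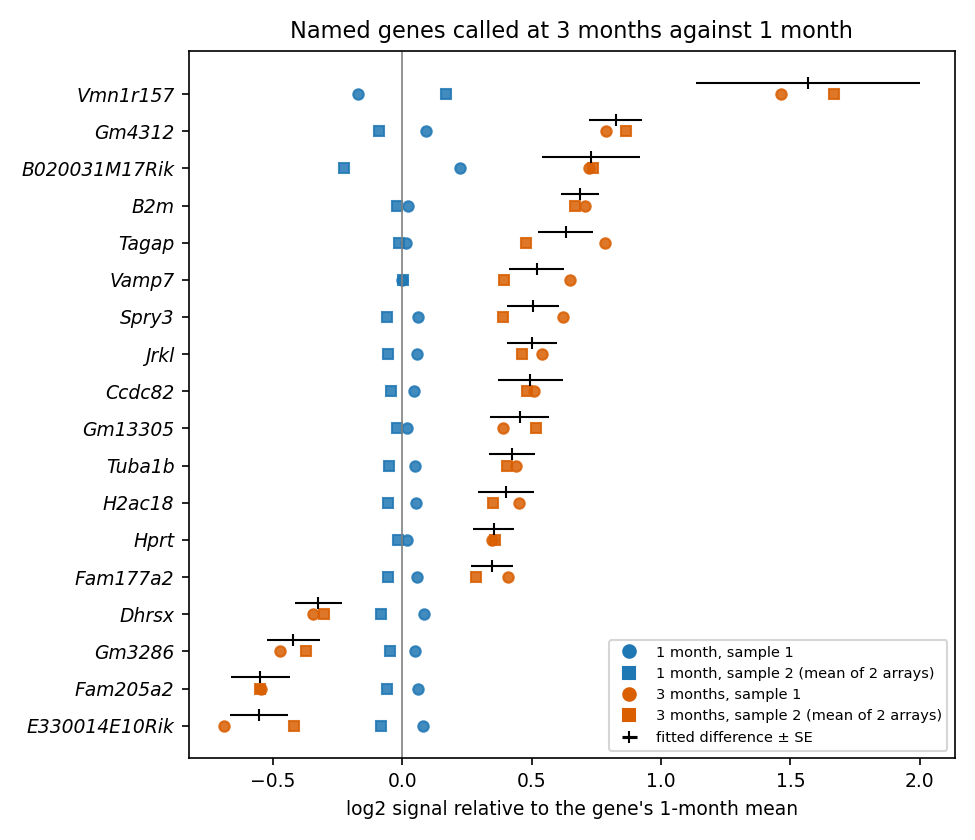
Log2 signal of the 18 called genes in each sample, relative to the gene's mean at 1 month, with the fitted difference and its standard error as a black tick and line. The 3-month samples (orange) and the 1-month samples (blue) do not overlap for any of them, as for every called feature and for 61.9% of all features tested.

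B2m, the light chain that every classical MHC class I molecule needs to reach the cell surface, had the smallest adjusted p of the named genes. Its signal was 5.78 and 5.73 in the 1-month samples and 6.46 and 6.42 in the 3-month samples. Both 3-month samples lay above both 1-month samples, by far more than the 2 samples of an age differed. The rise was 0.69 ± 0.073 log2 units (SE, n = 2 samples at each age), or 1.61-fold, with a limma adjusted p of 0.00102. B2m was measured with 20 spots on each array, whose SD within 1 array ran from 0.048 to 0.53. Its level averaged 5.74 at 6 months, back near the 1-month level, 6.98 at 9 months and 6.44 in WT.

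The promoter of B2m is shown because this gene carried the clearest rise among the named genes. In this window of the forward strand, chr2:122147437-122147736 in RefSeq's GRCm38.p6, the capitals mark the 1 match to a pair of GAAA with any 2 bases between them, the core letters of an interferon-stimulated response element, searched on both strands.

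B2m: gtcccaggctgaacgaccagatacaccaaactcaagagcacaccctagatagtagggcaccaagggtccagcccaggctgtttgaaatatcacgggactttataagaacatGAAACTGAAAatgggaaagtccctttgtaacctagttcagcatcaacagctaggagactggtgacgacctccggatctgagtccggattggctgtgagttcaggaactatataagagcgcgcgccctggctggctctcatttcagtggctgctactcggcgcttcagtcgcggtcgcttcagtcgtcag

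That motif was found in 3.44% of 32841 promoter windows of mouse genes, and a match describes letters and no binding.

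The chemokines on the same list were not called, and their differences lay below 0. Ccl21b and Ccl21c, copies of the chemokine that draws CCR7-bearing T cells and dendritic cells, had differences of -0.33 (adjusted p = 0.273) and -0.29 (adjusted p = 0.215). They are near-identical in sequence and their signals may not be separable. Ccl28, a mucosal chemokine, was dim at both ages and differed by -0.23 (adjusted p = 0.426). So B2m was the 1 gene called higher of the 4 chemokine and MHC genes tested, against 10.2% of all features, and 1 call in so short a list is no result about the list. The median of the 4 was -0.26. Ulbp1, a stress-induced ligand of the NKG2D receptor of natural killer cells, was -1.20 and -1.24 at 1 month and -2.34 and -1.65 at 3 months. Its 3-month samples both lay below the 1-month samples, but they lay well apart and the difference of -0.77 ± 0.23 missed the threshold (adjusted p = 0.0526).

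Of the 3 regulators of signalling on the list, Tagap and Spry3 were called higher, against 10.2% of all features. The median of the 3 was 0.50 against 0.0025 over all features. The list was chosen with earlier results of these data known, and calls in so short a list are no result about it. Tagap, a GTPase-activating protein known from activated T cells, was at 3.26 and 3.24 at 1 month and at 4.03 and 3.73 at 3 months. The 3-month samples were the higher ones, although they lay further apart than the 1-month samples. The rise was 0.63 ± 0.11 log2 units (limma adjusted p = 0.00732). Spry3, of the Sprouty family of inhibitors of receptor tyrosine kinase signalling, was at -0.0044 and -0.12 at 1 month and at 0.56 and 0.32 at 3 months, a rise of 0.50 ± 0.10 (adjusted p = 0.0134). Nim1k, a kinase related to AMPK, was dim, and its samples overlapped between the ages (difference -0.15 ± 0.47, adjusted p = 0.87).

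Vamp7, a SNARE protein that fuses late endosomes and lysosomes with other membranes and takes part in neurite outgrowth, was called higher, 1 of 3 genes of membrane traffic against 10.2% of all features. It read 3.57 in both 1-month samples and 4.22 and 3.96 at 3 months, a rise of 0.52 ± 0.11 (adjusted p = 0.0149). The other 2 genes of membrane traffic were not called, and 1 call in so short a list is no result about the list. Mia3, which helps load collagen into transport vesicles, differed by -0.20 (adjusted p = 0.372), and Brox, which carries a Bro1 domain, by 0.20 (adjusted p = 0.294) or, without scaling, by -0.087.

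Vamp7 and Spry3 are neighbours in RefSeq's order of protein-coding genes. So are Jrkl and Ccdc82, and these were the 2 pairs with both genes called among 15 neighbouring pairs with both genes tested. Of all features 17.4% were called, and so few pairs are no result about neighbours. Whether neighbours were called together more often than unrelated genes was not tested. In 5 of the 15 pairs the genes differed with the same sign. Tmlhe, the neighbour on the other side of Spry3, which encodes the first enzyme of carnitine synthesis, differed by -0.0045 (adjusted p = 0.983). Jrkl, which resembles transposases in its DNA-binding part, was at 1.35 and 1.23 at 1 month and at 1.83 and 1.75 at 3 months, a rise of 0.50 ± 0.10 (adjusted p = 0.0124). Ccdc82, a coiled-coil protein, was at 3.29 and 3.20 at 1 month and at 3.76 and 3.73 at 3 months, a rise of 0.50 ± 0.13 (adjusted p = 0.0341). For both genes the ages were separated by several times the distance between samples of an age.

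The start regions of Jrkl and Ccdc82 are shown because these neighbours are read from opposite strands and rose by a like amount. Capitals mark GGGCGG, the GC box letters, searched on both strands. The Ccdc82 window, chr9:13246709-13247005 on the forward strand of GRCm38.p6 (RefSeq), held 6 matches. The Jrkl window, chr9:13245692-13245869 on the reverse strand, held none. It has 178 bases and that of Ccdc82 297, whereas the 32841 promoter windows, of which 35.7% held at least 1 match, have 300 bases each, so that share is no measure for the shorter Jrkl window.
Jrkl: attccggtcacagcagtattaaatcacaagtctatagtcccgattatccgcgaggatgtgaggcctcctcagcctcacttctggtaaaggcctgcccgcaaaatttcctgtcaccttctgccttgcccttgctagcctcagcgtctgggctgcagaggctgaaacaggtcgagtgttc
Ccdc82: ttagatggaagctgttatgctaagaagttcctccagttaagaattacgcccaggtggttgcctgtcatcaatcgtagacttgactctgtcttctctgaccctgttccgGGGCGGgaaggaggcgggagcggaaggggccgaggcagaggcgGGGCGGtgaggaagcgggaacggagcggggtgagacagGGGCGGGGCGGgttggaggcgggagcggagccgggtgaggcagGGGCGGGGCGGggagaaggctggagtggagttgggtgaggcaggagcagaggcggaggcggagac

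The array carries 15 reference genes, each in 20 spots, and 3 of them were called higher, against 10.2% of all features. Besides B2m these were Tuba1b, an alpha-tubulin of microtubules, and Hprt, an enzyme of purine salvage. Tuba1b was at 7.89 and 7.79 at 1 month and at 8.28 and 8.24 at 3 months, a rise of 0.42 ± 0.089 (adjusted p = 0.0166). Its probe may also bind the close alpha-tubulin copies. Hprt was at 6.69 and 6.65 at 1 month and at 7.02 and 7.03 at 3 months, a rise of 0.35 ± 0.079 (adjusted p = 0.0214). Both genes were tight within each of these ages, but the test took its spread from all 5 groups. With only the 1-month and 3-month samples in the fit neither was called (limma adjusted p = 0.0864 for Tuba1b and 0.0928 for Hprt).

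The other 12 reference genes were not called. Gapdh, of glycolysis, differed by 0.23 (adjusted p = 0.254) and turned to -0.0097 after quantile normalization. Actb, cytoplasmic actin, differed by 0.039 (adjusted p = 0.85) and turned to -0.15 under quantile normalization. Nono, a nuclear RNA-binding protein, had the lowest difference of the 15, -0.25 (adjusted p = 0.139). Over the 15 the median difference was 0.085, with 10 above 0 and 5 below, between -0.25 and 0.69. Without scaling between arrays the differences of Actb and Gapdh were -0.25 and -0.050, and those of Tuba1b and Hprt shrank to 0.14 and 0.069. Tuba1b and Hprt lost their calls without scaling and under quantile normalization, while B2m kept its call in both.

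**Figure D3:**
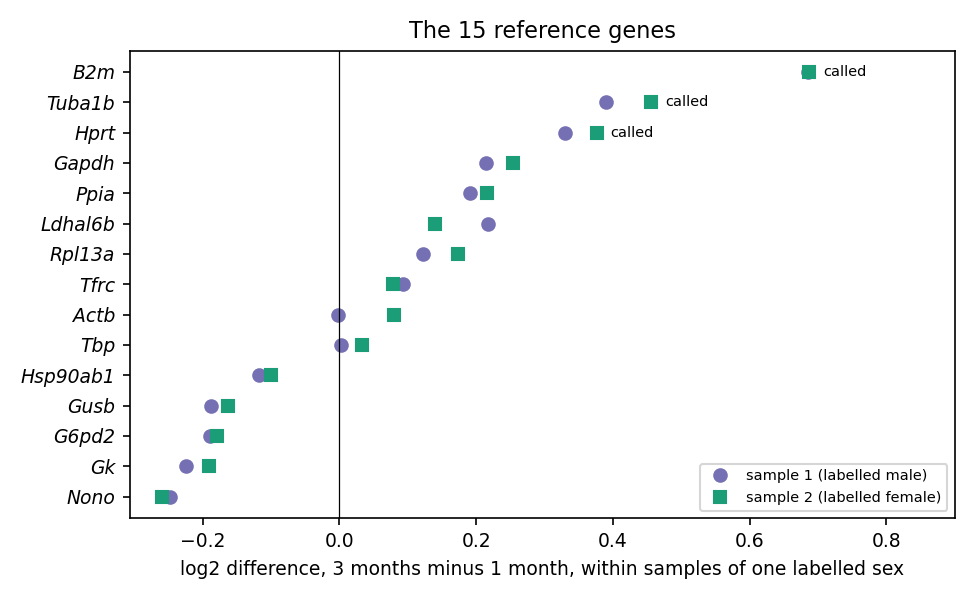
Log2 difference, 3 months minus 1 month, of the 15 reference genes, taken within sample 1 of each age (circles) and within sample 2 (squares). B2m, Tuba1b and Hprt, marked as called, lie to the right, and for most genes the 2 differences lie close together.

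Histone H2A genes supply one of the core proteins of the nucleosome. Of the 4 tested, H2ac18 alone was called higher, against 10.2% of all features, and the median of the 4 was 0.32. A single call in so short a list is no result about the list. It was at 4.66 and 4.55 at 1 month and at 5.05 and 4.96 at 3 months, a rise of 0.40 ± 0.11 (adjusted p = 0.0415). H2ac19, a near-identical copy with which it may share signal, differed by 0.26 (adjusted p = 0.138) or, without scaling, by -0.028, and H2ac23 by 0.39 ± 0.39 (adjusted p = 0.554). H2al2b, a variant of the male germ line, differed by -0.32 (adjusted p = 0.0634).

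The family of Vmn1r vomeronasal pheromone receptors is known from the sensory neurons of the nose. Of its 12 members with a probe 9 were tested, and 1 of these, Vmn1r157, was called higher, close to the 10.2% of all features. It was at -3.22 and -2.88 at 1 month and at -1.58 and -1.38 at 3 months, a rise of 1.57 ± 0.43 (adjusted p = 0.0442). It stayed dim at both ages, and 11 of 20 alternatives did not call it. The median of the 9 was 0.066, and the family's members are alike enough in sequence that the signal of one may reflect another. A further RefSeq-named probe, NM_009485, for which the reference table gave no symbol, was called lower, from -1.50 and -1.46 at 1 month to -2.35 and -2.45 at 3 months (difference -0.92 ± 0.10, adjusted p = 0.00116), or by -0.49 with normexp correction (adjusted p = 0.0444).

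The remaining called genes have little known function in the brain. Gm4312, a predicted gene, was at -0.39 and -0.57 at 1 month and at 0.31 and 0.38 at 3 months (0.83 ± 0.10, adjusted p = 0.00198). B020031M17Rik, a cDNA-defined gene, was at 1.39 and 0.94 at 1 month and at 1.89 and 1.90 at 3 months (0.73 ± 0.19, adjusted p = 0.0355). The ages were separated for both, with the wider spread of B020031M17Rik at 1 month. Gm13305 and Fam177a2 rose by 0.45 ± 0.11 (adjusted p = 0.0311) and 0.35 ± 0.080 (adjusted p = 0.0236).

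Of the genes with a symbol 4 fell. Fam205a2, of a multicopy family, was at 2.14 and 2.02 at 1 month and at 1.53 in both 3-month samples, a fall of -0.55 ± 0.11 (adjusted p = 0.0159). E330014E10Rik was at -0.036 and -0.20 at 1 month and at -0.81 and -0.53 at 3 months (-0.55 ± 0.11, adjusted p = 0.015). Gm3286 fell by 0.42 on the log2 scale (adjusted p = 0.0298), and its second probe differed by -0.38. Dhrsx, a short-chain dehydrogenase, was at 1.98 and 1.81 at 1 month and at 1.55 and 1.59 at 3 months (-0.32 ± 0.091, adjusted p = 0.0456). Sly, a Y-linked gene of male germ cells, was dim and differed by -0.27 (adjusted p = 0.603). Of 3 genes listed as belonging to testis or pancreas 2 were tested: Fam205a2, called lower, and Amy2a5, a pancreatic amylase, which differed by -0.017 (adjusted p = 0.941). Of all features 7.16% were called lower, and 1 call among 2 genes is no result about the list.

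Where the step from 3 to 6 months was set against the step from 1 to 3 months in the same fit, 5389 features (12.3%) differed between the steps. The 3-month samples enter both steps, so a difference at 3 months alone counts in both. The genes named here were chosen for a called difference between 1 and 3 months, and the step contrast holds that difference with its sign turned. Their step p-values thus partly test the selected difference again and cannot by themselves show a change after 3 months. For B2m the later step was lower than the earlier by -1.39 ± 0.13 (adjusted p = 0.000703). Gm4312 and Fam177a2 also differed between steps, by -1.0 (adjusted p = 0.011) and -0.57 (adjusted p = 0.0369). The 6-month means of Gm4312 and Fam177a2 lay between their 1-month and 3-month means. Jrkl, at 1.82 on average at 6 months, and Hprt, at 7.03, stayed near their 3-month levels, and their steps did not pass the test (adjusted p = 0.112 and 0.145). B020031M17Rik averaged 2.52 at 6 months and 2.95 at 9 months, above both earlier ages, and Gm3286 averaged -0.96 and -1.40, below both.

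Most of the array consists of probes that the files name only by an array code or by a kind of transcript. Of the 39430 array codes tested 4215 were called higher and 2886 lower (18% called), near the share over all features, of which they are the larger part. Long intergenic noncoding RNAs (lincRNAs), which lie between protein-coding genes, gave small counts of calls. Of 318 mouse lincRNA probes 3 were called higher and 13 lower (5.03%), and of 509 probes derived from human lincRNAs 6 were called higher and 17 lower (4.52%). Their median differences were -0.11 and -0.15. Both sets were dim, with median levels of -3.03 and -3.01, and the SD between samples of an age was 0.24 and 0.23 for the median probe, against 0.098 for array codes. The part of dimness in their low share was not tested.

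Probes to exons of lincRNA regions were called in 12.9% of 2280, with 163 higher and 130 lower. Those to sequence records of cDNAs or ESTs were called in 14.3% of 844, with 69 higher and 52 lower. Ultraconserved elements are stretches identical between human, rat and mouse, some of which are transcribed. Of 417 probes to them 27 were called higher and 36 lower (15.1%), with a median of -0.10.

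**Figure D4:**
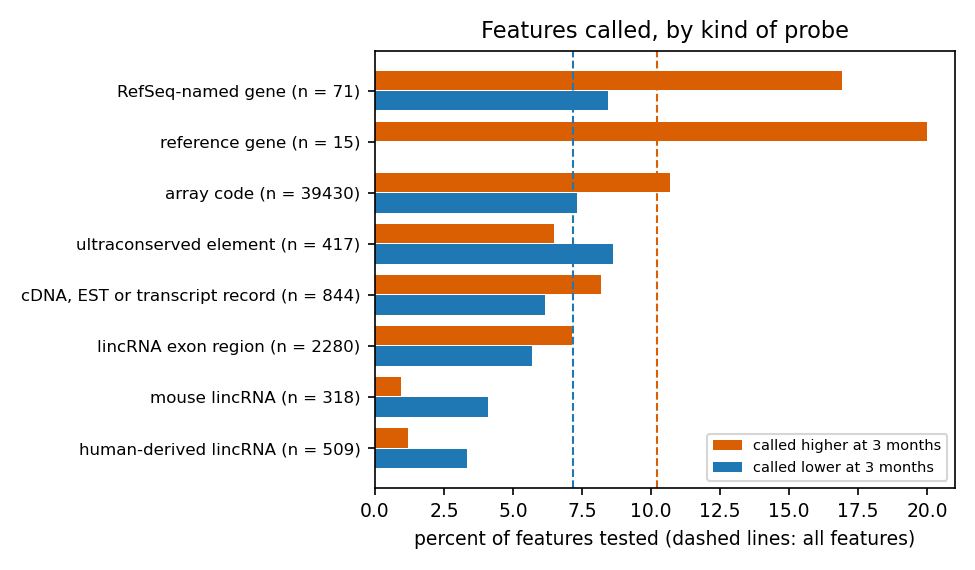
Percent of the features of each kind called higher (orange) and lower (blue) at 3 months, with n the number tested and dashed lines at 10.2% and 7.16%, the shares over all features. Both bars of the mouse and of the human-derived lincRNAs end short of the dashed lines.

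For each kind of probe, the differences described are the 3 widest rises and falls among called probes that were well above background on all 3 arrays of both ages, so that both levels were measured. Some called probes above background on fewer arrays differed more, such as MM9LINCRNAEXON10539-_P1, from a lincRNA region, whose mean went from -4.66 to 2.94 (7.60 ± 0.11, adjusted p = 6.87e-08), with 2 of 3 arrays above background at 1 month. Some array codes differed far more than any named gene. ASMM9PARTA033120 was at -2.73 and -2.70 at 1 month and at 5.17 and 5.23 at 3 months, a rise of 7.92 ± 0.093 (adjusted p = 3.37e-08). It went from well below the 75th percentile of the array to well above it, with nearly equal samples at each age. It averaged 4.99 at 6 months, 0.17 at 9 months and 0.14 in WT. ASMM9PARTA032569 rose by 6.34 ± 0.12, from -3.96 and -4.13 to 2.38 and 2.21, and ASMM9PARTA029776 by 6.20 ± 0.14, from -3.87 and -4.25 to 2.15 and 2.13. These 2 also stayed high at 6 months, at 2.06 and 1.99, and were lower at 9 months, at -0.81 and -0.42. All 3 were well above background on every array of both ages and kept their calls in all 20 alternatives.

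The widest falls of array codes above background at both ages were smaller. ASMM9PARTA021726 was at 0.042 and -0.0015 at 1 month and at -3.61 and -3.33 at 3 months, a fall of -3.49 ± 0.10 (adjusted p = 1.88e-06). It averaged -1.74 at 6 months, 2.88 at 9 months and 2.63 in WT, so the 3-month level was the lowest of the groups. ASMM9PARTA018126 and ASMM9PARTA047992 differed by -2.45 and -2.17. With normexp correction the falls of the 3 shrank to -2.22, -0.85 and -1.28, each still called. The files used here pair none of these codes with a gene, and the probe sequences were not used here.

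**Figure D5:**
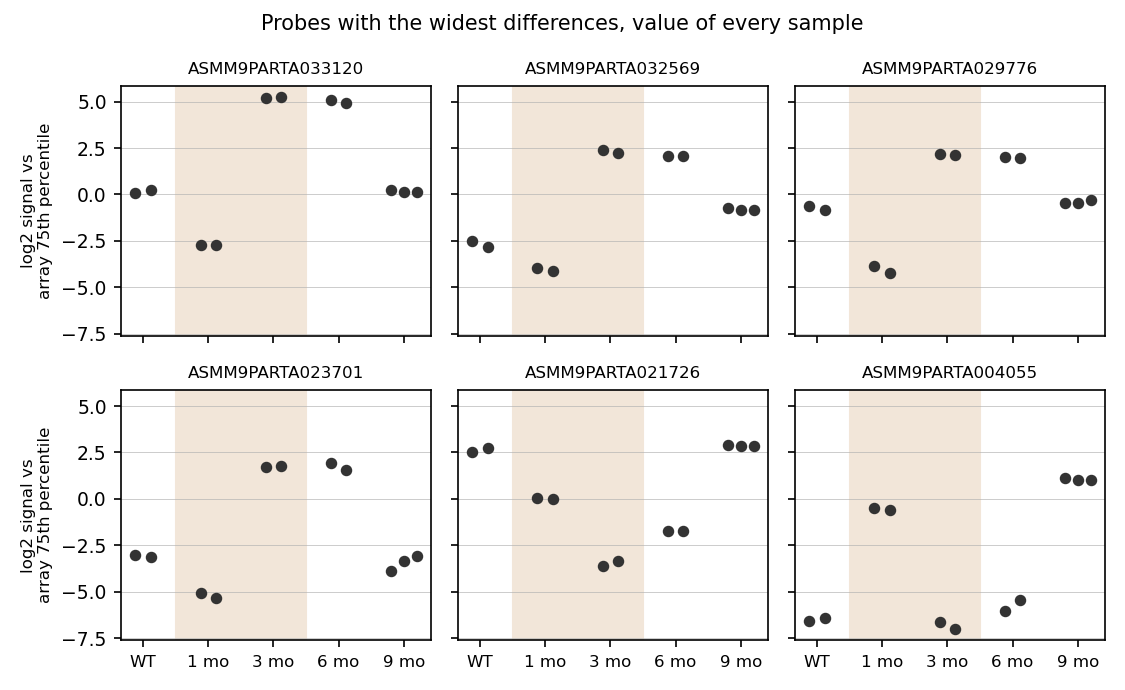
Log2 signal relative to the array's 75th percentile, in every sample of the 5 groups, for 6 array codes with wide differences, with the 1-month and 3-month samples shaded. The first 4 are high at 3 and 6 months, and ASMM9PARTA021726 and ASMM9PARTA004055 are lower at 3 months than at 1 month.

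For probes well above background on all 3 arrays of one age and on none of the other, only a bound can be given. It sets the mean of the bright age against the mean of the higher of the array's lowest signal above background and the probe's own signal. There were 95 such probes among the features called higher (2.11% of them) and 124 among those called lower (3.95%), with a bound of 2-fold or more for 64 and 13. Such probes passed the filter on dim probes only through the age at which they were bright. The share of all features tested with this pattern was not taken, so these counts are no result about the ages. The largest bounds were at least 97.0-fold higher for ASMM9PARTA023701 and at least 51.1-fold higher for ASMM9PARTA027745. ASMM9PARTA017459 was at least 31.8-fold higher and ASMM9PARTA030909 at least 18.2-fold higher. ASMM9PARTA030909 was not well above background at 6 or 9 months, while in WT it averaged 0.77. In the other direction ASMM9PARTA004055 was at least 15.7-fold lower, ASMM9PARTA002874 at least 5.26-fold, ASMM9PARTA006359 at least 4.40-fold and ASMM9PARTA015865 at least 3.50-fold lower. These bounds hold for the processed signal only. With normexp correction the 4 rises lay between 5.27-fold and 21.6-fold, all called and all under these bounds, and the 4 falls were 4.83-fold, 2.17-fold, 2.18-fold and 1.49-fold. The falls of ASMM9PARTA006359 and ASMM9PARTA015865 then lost their calls (adjusted p = 0.0574 and 0.124). ASMM9PARTA004055, ASMM9PARTA002874 and ASMM9PARTA006359 were well above background at 1 and 9 months and on no array at 3 or 6 months or in WT.

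Among probes to exons of lincRNA regions above background on all 6 arrays, the widest rise was that of MM9LINCRNAEXON10133-_P1, from -3.49 and -2.94 at 1 month to 0.14 and 0.018 at 3 months (3.29 ± 0.35, adjusted p = 0.00105). It was near 0 in WT and at 6 months and low at 9 months (0.28, 0.16 and -3.37). MM9LINCRNAEXON11355-_P1, a bright probe, was at 2.56 and 2.41 at 1 month and at 4.64 and 4.53 at 3 months (2.10 ± 0.14, adjusted p = 0.000107). MM9LINCRNAEXON10767+_P1 rose by 2.10 ± 0.21, or by 1.26 with normexp correction. The largest falls among such probes were -1.64 for MM9LINCRNAEXON11325+_P1, -1.47 for MM9LINCRNAEXON11317-_P1 and -1.46 for MM9LINCRNAEXON10774-_P1. With normexp correction these were -1.03, -0.40 and -0.27, and MM9LINCRNAEXON11317-_P1 and MM9LINCRNAEXON10774-_P1 lost their calls (adjusted p = 0.232 and 0.261).

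Many regions were probed on both strands. Single probes to lincRNA exon regions were called in 12.9% and all features in 17.4%, so a small count of regions with both strands called is no result about strands. Of 767 lincRNA exon regions with both strands tested, 19 had both strands called: 5 both higher, 8 both lower and 6 in opposite directions. In 153 regions 1 strand was called, and the correlation of the strands' differences across regions was 0.079. The consecutively numbered exon regions MM9LINCRNAEXON11962, MM9LINCRNAEXON11963 and MM9LINCRNAEXON11964 were each lower on both strands, by between -0.64 and -1.45. They were noticed after their values were seen. Of 105 ultraconserved elements with both strands tested, 5 had both called, 1 of them in opposite directions, where single probes were called in 15.1%. Whether both strands were called together more or less often than unrelated probes was not tested.

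The ultraconserved element uc.477 was lower on both strands at 3 months. Its plus-strand probe, uc.477+, was at 1.84 and 1.68 at 1 month and at 0.80 and 0.68 at 3 months (-1.03 ± 0.14, adjusted p = 0.00309). Its minus-strand probe, uc.477-, was at 0.056 and -0.19 at 1 month and at -1.01 and -1.09 at 3 months (-0.99 ± 0.14, adjusted p = 0.00386). At 6 months uc.477+ was back, at 2.01 on average. The 6-month mean of uc.477-, -0.30, lay above its 3-month samples but below both of its 1-month samples. The fall of uc.166+ was -1.36 ± 0.10 (adjusted p = 0.00018), and its minus strand differed by -0.61. The largest rises among elements above background on all 6 arrays were 1.21 for uc.282+, 1.11 for uc.403+ and 0.98 for uc.393+, of which the first 2 are dim. With normexp correction they were 0.68 for uc.282+, no longer called (adjusted p = 0.0501), and 0.55 for uc.403+, still called. Some elements below background on part of the 6 arrays had wider fitted differences, from 2.24 for uc.284+ to -2.10 for uc.265-. On no 1-month array did uc.284+ clear background, nor did uc.265- on any 3-month array. A level at background is not measured, so these 2 values are no sizes of change. Only a bound could be given for such probes, and none is given here for these 2.

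AK029714_P1, a probe to a mouse cDNA record, was at -1.55 in both 1-month samples and at 0.48 and 0.24 at 3 months (1.91 ± 0.12, adjusted p = 8.48e-05). Its levels in WT and at 6 and 9 months, 0.25, 0.54 and 0.80, were close to or above the 3-month level, so the 1-month samples stood alone. AV038163_P1 was at 3.53 and 3.45 at 1 month and at 4.88 and 4.81 at 3 months (1.36 ± 0.10, adjusted p = 0.000189). CK375272_P1 rose by 1.48. The widest fall among cDNA probes above background on all 6 arrays was that of CA870816_P1 at -1.74, or -0.86 with normexp correction, whose 3-month samples of -4.11 and -2.42 lay far apart. AA265991_P1 fell from 3.62 and 3.37 to 2.00 and 2.23 (-1.38 ± 0.17, adjusted p = 0.00204), and BC040767_P1 from -0.34 and -0.55 to -1.73 and -1.50, a call lost with normexp correction (-0.83, adjusted p = 0.0803).

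The few lincRNAs called were mostly small changes or dim probes. mouselincRNA0655+_P1 rose from -1.0 and -1.17 to 0.013 and 0.14 (1.16 ± 0.33, adjusted p = 0.0461). mouselincRNA0161-_P1, the bright one, was at 5.19 and 4.81 at 1 month and at 5.52 in both 3-month samples (0.52 ± 0.15, adjusted p = 0.0492), and lost its call in 13 of 20 alternatives, normexp correction among them. mouselincRNA1494-_P1 differed by 0.28 (adjusted p = 0.0405) and, without scaling, by -0.0049, and lost its call with normexp correction (adjusted p = 0.15). The falls among probes above background on all 6 arrays were led by mouselincRNA0079+_P1 at -0.83, mouselincRNA0315-_P1 at -0.69 and mouselincRNA0712-_P1 at -0.68. With normexp correction mouselincRNA0079+_P1 differed by -0.13 (adjusted p = 0.75) and mouselincRNA0315-_P1 by -0.22 (adjusted p = 0.358), so both lost their calls. Of the human-derived probes, humanlincRNA1396-_P1 was at 0.079 and -0.10 at 1 month and at 1.40 and 1.25 at 3 months (1.34 ± 0.35, adjusted p = 0.036). humanlincRNA0498-_P1 was at -0.51 and -0.57 at 1 month and at -1.56 and -1.10 at 3 months (-0.79 ± 0.14, adjusted p = 0.0103). The other 4 of the widest human-derived differences on probes above background on all 6 arrays, 1.45 and 1.16 for humanlincRNA0095-_P1 and humanlincRNA0563-_P1 and -1.02 and -0.97 for humanlincRNA0573+_P1 and humanlincRNA1929-_P1, came from probes below -2 at both ages, and all 4 lost their calls with normexp correction (adjusted p between 0.0966 and 0.436).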

How the data were processed

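Cy3-labelled cRNA from total brain RNA was read on Agilent arrays with 1 colour and 59994 gene spots, per the labels' protocols and the file headers. Spot intensities were deposited by the authors as processed signals from Agilent Feature Extraction 10.7.1.1, per the submitters' processing notes, already background-subtracted per the file headers. Its flags for spots above background (unit other) were used as deposited. The deposited value table equalled the local background in all 62513 rows of the 14 arrays and was not used for tests. Arrays give no counts, so their number limits the precision.

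Here log2 intensities had each array's 75th percentile subtracted, spots of a probe and near-identical arrays were averaged, and negative probes (1200 spots of 20 probes) and 134 non-uniform single-spot probes were left out. Features well above background on 3 or more of the 6 arrays were kept, with the brightest probe per symbol. limma 3.58.1 in R 4.3.3 fitted all 5 groups, and the contrast was called at a Benjamini-Hochberg adjusted p under 0.05. The step from 3 to 6 months minus the step from 1 to 3 months was added after the data were seen. The fit of 3 months against 1 month was tested on simulated data, and the step contrast was not.

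Replicates were numbered in accession order, and no number pairs samples. Named are every called symbol, the list members on the array, for each kind of probe the 3 largest rises and falls among called probes whose samples did not overlap and that were well above background on all 6 arrays, and the 4 largest bounds in each direction; probes outside these limits were chosen after their values were seen. Members and lists were chosen with earlier results of these data known. Symbols and promoters came from RefSeq (GRCm38.p6); promoter windows surround each gene's start. Alternatives changed the scaling, background correction, filter, samples and blocks; normexp used the median signals. Those not named in the closing section changed counts by under 1.5 times.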

Additional observations from a re-analysis of the deposited data

How the results depend on the processing

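With all groups in the fit 7638 features were called, 4498 higher and 3140 lower, and 5389 differed between the steps. Counts in that order were 4586, 2798, 1788 and 2754 without the 9-month arrays, and 858, 628 and 230 with only the 1-month and 3-month samples, where 2 residual degrees of freedom remain. They were 15607, 8775, 6832 and 13760 with every array as a sample, which counts near-identical arrays as separate. They were 14207, 8147, 6060 and 11915 with the scan setting as a block over separate arrays, a fit that also left out the 9-month arrays. With normexp correction they were 3747, 2418, 1329 and 2399. Without scaling, an alternative chosen after seeing the data, they were 8361, 1144, 7217 and 11474. The split was 3708 higher and 3779 lower under quantile normalization. With sex as a block 7554 were called.

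Leaving out samples gave these counts, with the lone sample of that age assumed to vary like the others. They were 3224, 2141, 1083 and 3282 without sample 1 at 1 month. They were 3126, 1810, 1316 and 3215 without sample 2 at 1 month. They were 3106, 1892, 1214 and 1595 without sample 1 at 3 months, and 5690, 3043, 2647 and 3879 without sample 2 at 3 months. Beyond what these settings' construction shows, the cause was not tested.

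Signs turned for few named features. Amy2a5 was at 0.033 with separate arrays, with or without the scan block, and at 0.069 with normexp, and ran from -0.16 (or -0.0073) to 0.12 when samples were left out. With normexp Ccl28 was at 0.18 and Nim1k at 0.13. With samples left out Ccl28 ran from -0.50 to 0.037, Nim1k from -0.73 to 0.42 and Actb from -0.010 to 0.088. Under quantile normalization Actb was at -0.15 and Gapdh at -0.0097. Without scaling Actb was at -0.25, Gapdh at -0.050, Brox at -0.087, H2ac19 at -0.028 and mouselincRNA1494-_P1 at -0.0049. Of the 63 named features that were called, 38 lost the call with only the 1-month and 3-month samples and 23 with normexp. No paired analysis was possible because replicate numbers follow accession order and pair no animals; labelled sex, which each age holds in both forms, was fitted as a block, and 8 of the 63 lost their calls. Signal over background limits the dim probes: no fold is given for a probe below background at both ages.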
